A study of Mus musculus with 12 samples.

Results

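The genes described here are 40 genes of sugar breakdown and low-oxygen signalling. They cover glucose and lactate transport, the steps of glycolysis, the fate of pyruvate, the pentose phosphate pathway and the hypoxia response. They were taken by symbol from a list, and all 40 were found in each of the 3 deposited tables of between 23235 and 23309 entries. 1 of them, Pkm2, stands in the MLL-AF9 cotransduction table as Pkm and was matched through the RefSeq synonyms. After a filter on low values, 38 of the 40 could be tested in each table.

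In the study, PRDM16 or a mutant form of it was expressed beside a leukaemia fusion gene in mouse bone marrow cells, and polyadenylated RNA was sequenced. PRDM16 is a chromatin protein with a PR domain, named in the title of the series as a histone methyltransferase that acts in tumor suppression. MLL-AF9 and E2A-HLF are fusion proteins made by chromosome translocations in human leukaemia. The question was how PRDM16 and the mutant form PRDM16mut differ in their effect on the cells.

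There were 6 groups of 2 libraries. In both cotransductions, Lin- marrow cells of C57BL/6 mice received PRDM16 or PRDM16mut at the same time as the fusion gene, which was MLL-AF9 in one experiment and E2A-HLF in the other, and G418 and puromycin selection lasted 10 days. In the third experiment PRDM16 or PRDM16mut was added to marrow cells already transduced with MLL-AF9, called stable cells in the labels, and puromycin selection lasted 10 days. Every group carried a fusion gene and 1 of the 2 forms of PRDM16, and all cultures held 15% FBS and the cytokines SCF, IL3 and IL6, each at 10 ng/ml, in IMDM medium. No group without either form was part of the comparisons, so a difference cannot be assigned to a gain with PRDM16 or to a gain with PRDM16mut. What was altered in PRDM16mut is not stated in the labels, nor is whether the 2 libraries of a group came from separate cultures. The p-values therefore measure a spread between libraries that may be technical.

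Glycolysis turns glucose into pyruvate in the cytosol, and the cell then sends the pyruvate into mitochondria or reduces it to lactate, which leaves through monocarboxylate transporters. The pentose phosphate pathway branches off after the first step, and makes NADPH and the ribose of nucleotides. When oxygen is short, the prolyl hydroxylases Egln1 and Egln3 no longer mark the subunit Hif1a for destruction, and the HIF complex binds short hypoxia response elements at genes for glucose transporters, glycolytic enzymes, lactate export and vessel growth. In bone marrow, which is poor in oxygen, HIF signalling and glycolysis are known to be high in blood stem cells, and both glycolysis and the pentose phosphate pathway are used by neutrophils and dividing leukaemia cells.

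The core of a hypoxia response element reads ACGTG or GCGTG, and 5 members on which the results turn are shown with these cores. Each sequence lies just before the start of the gene as annotated by RefSeq, 5′ to 3′ on the strand of the gene, in the GRCm38.p6 build, which is not the mm9 build of the deposited values. Capitals mark ACGTG or GCGTG, and CACGT or CACGC where the core is on the opposite strand. The shown bases are chr6:142507958-142508207 on the minus strand for Ldhb, chr14:45318573-45318702 on the minus strand for Ero1l (Ero1a in RefSeq), chr11:120948817-120949066 on the plus strand for Slc16a3, chr7:138909507-138909756 on the minus strand for Bnip3 and chr13:6648772-6649021 on the minus strand for Pfkp.
Ldhb: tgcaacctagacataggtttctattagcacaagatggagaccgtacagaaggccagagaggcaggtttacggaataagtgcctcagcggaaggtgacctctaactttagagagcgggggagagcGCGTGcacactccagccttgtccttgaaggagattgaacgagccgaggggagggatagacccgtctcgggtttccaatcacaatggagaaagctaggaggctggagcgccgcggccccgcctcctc
Ero1l: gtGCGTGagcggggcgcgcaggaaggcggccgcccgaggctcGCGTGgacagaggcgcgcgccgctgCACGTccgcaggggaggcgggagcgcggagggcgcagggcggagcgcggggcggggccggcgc
Slc16a3: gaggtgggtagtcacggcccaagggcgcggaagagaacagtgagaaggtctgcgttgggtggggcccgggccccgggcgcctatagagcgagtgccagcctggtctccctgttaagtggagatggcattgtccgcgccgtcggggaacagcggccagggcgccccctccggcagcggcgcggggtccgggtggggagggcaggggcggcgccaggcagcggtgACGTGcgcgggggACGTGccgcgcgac
Bnip3: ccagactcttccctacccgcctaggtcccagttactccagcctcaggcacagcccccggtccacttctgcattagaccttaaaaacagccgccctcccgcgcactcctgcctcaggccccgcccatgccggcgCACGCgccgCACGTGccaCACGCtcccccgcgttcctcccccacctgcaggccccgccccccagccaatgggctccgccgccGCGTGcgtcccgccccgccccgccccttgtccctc
Pfkp: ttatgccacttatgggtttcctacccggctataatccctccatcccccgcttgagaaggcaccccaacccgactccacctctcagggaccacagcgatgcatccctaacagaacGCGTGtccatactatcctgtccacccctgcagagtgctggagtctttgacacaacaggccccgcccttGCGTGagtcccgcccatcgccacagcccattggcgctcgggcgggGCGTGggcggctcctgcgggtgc
The cores were counted over the shown bases, which number 130 for Ero1l and 250 for each of the others. Ldhb held 1 core, Slc16a3 held 2, and Ero1l and Pfkp held 3 each. Bnip3 held 5, of which a pair overlaps in the palindrome CACGTG, which reads ACGTG on both strands. Slc16a3 held only ACGTG cores, Ldhb and Pfkp only GCGTG cores.

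RefSeq gave a promoter window for 39 of the 40 members, and none for Slc2a3. Within 250 bases before the start, ACGTG stood on either strand in 22 of the 39 members (56.4%). It stood in 26.8% of 7150 tested genes and in 18.5% of 27025 genes in the whole promoter table. The 7150 are the genes, of 9489 tested in all 3 experiments, that the promoter table holds under the same symbol. Of the members, 2 were matched under another symbol. A gene counted if any of its windows held a core. The 39 members had 54 windows, and the 27025 genes had 32851. GCGTG stood in 28 members (71.8%), against 52.4% of the tested genes and 30.9% of the table. The median GC content of the windows was 61.2% in the members, 60% in the tested genes and 52.4% in the table. Many of the members are known HIF targets and were listed as such, so the share of cores among them is a description and not a finding about binding.

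The deposited values are FPKM (fragments per kilobase of transcript and per unit of sequenced fragments), so levels can be set beside each other between genes. No read counts came with them, and the depth of the libraries is unknown. By the steps between low values, the second PRDM16 library of the MLL-AF9 cotransduction had 1.63 times the depth of the first, and the other pairs differed by a factor of 0.92 to 1.18. The median gene differed between the libraries of a group by 0.04 to 0.07 on the log2 scale, and by 0.12 between the 2 MLL-AF9 cotransduction libraries with PRDM16. The ribosomal RNA entry Rn45s was listed at 0 in both PRDM16 libraries of the MLL-AF9 cotransduction and between 941 and 1554 FPKM in the other 10, which sets these 2 libraries apart. Prdm16 itself was at 83.9 and 119 FPKM with PRDM16 and 29.5 and 30.1 FPKM with PRDM16mut in the MLL-AF9 cotransduction, at 49.2 and 56.6 FPKM with PRDM16 and 56.6 and 43.5 FPKM with PRDM16mut in the E2A-HLF cotransduction, and at 77.9 and 80 FPKM with PRDM16 and 89.1 and 94.6 FPKM with PRDM16mut in the stable cells. Both forms are counted under 1 symbol, so this shows that Prdm16 was expressed everywhere and not which form. On the log2(FPKM + 1) scale Prdm16 was higher with PRDM16 in the MLL-AF9 cotransduction (1.71, SE 0.16) and slightly lower in the stable cells (-0.22, SE 0.04). In the E2A-HLF cotransduction the difference was 0.09 (SE 0.13). The form and the level of Prdm16 therefore cannot be told apart beside MLL-AF9, nor where that experiment is compared with the others. The blood cell genes Ptprc, Spn, Cd53, Laptm5 and Coro1a were detected in every library, and the B cell gene Pax5 and the stromal gene Dcn were listed at 0 in all 12.

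Differences are given as PRDM16 minus PRDM16mut on the log2(FPKM + 1) scale, with their standard error (SE). On this scale, changes of genes at low FPKM come out too small. Calls are made from limma where the p adjusted by Benjamini-Hochberg over every gene tested in the table is under 0.05. In the MLL-AF9 cotransduction 12 members were higher and 17 lower with PRDM16, where 35.6% of all genes were higher and 34% lower. In the E2A-HLF cotransduction 22 were higher and 5 lower, where 22.7% of all genes were higher and 21.1% lower. In the stable cells 10 were higher, all of them by less than 1.5-fold, where 4.2% of all genes were higher.

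**Figure D1:**
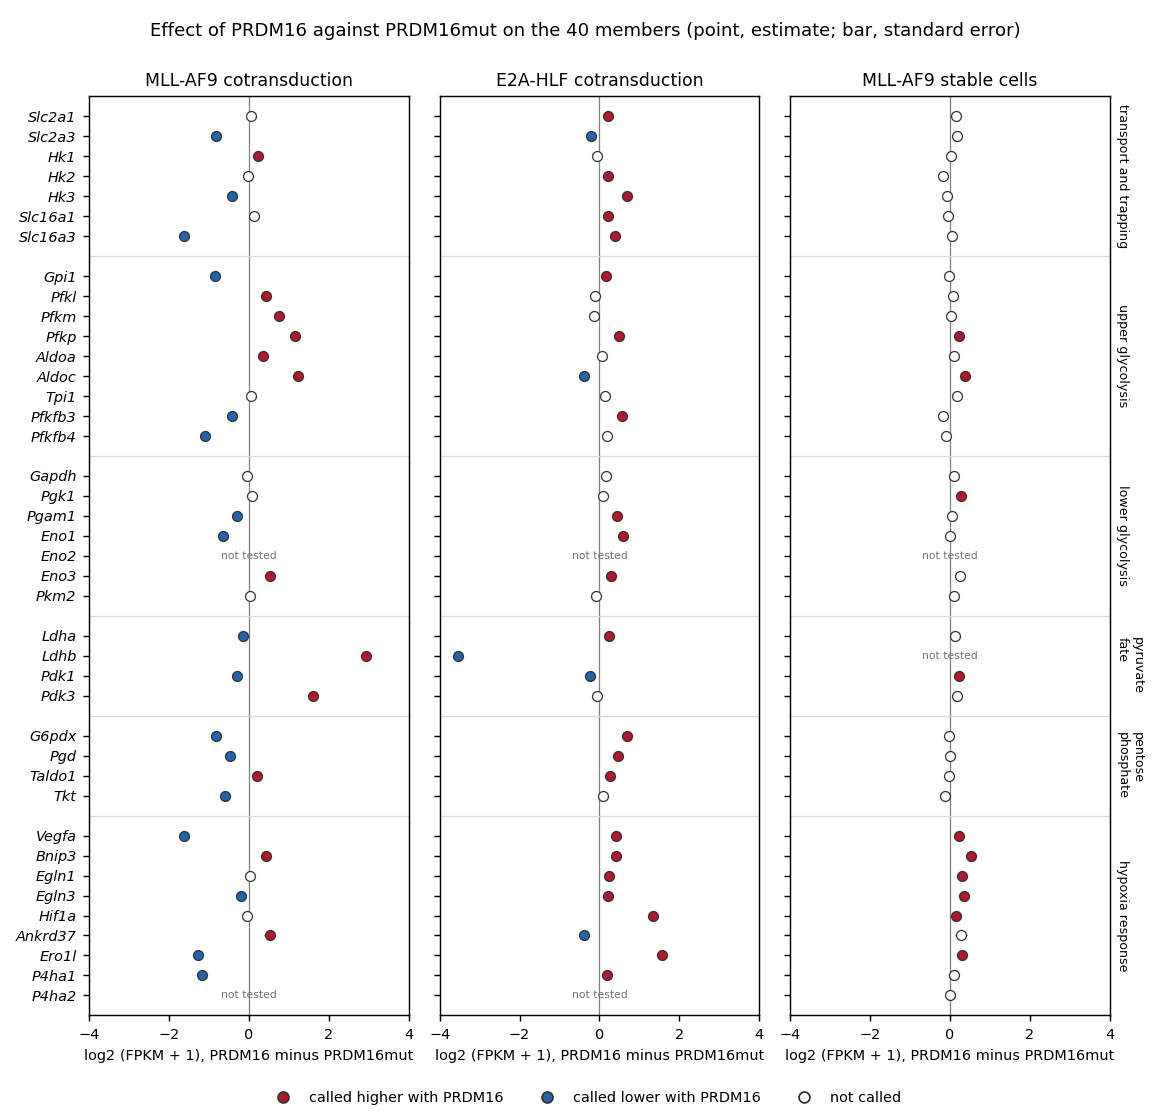
Each point is the log2(FPKM + 1) difference, PRDM16 minus PRDM16mut, of 1 member in the experiment named above the panel, with its standard error as a bar. Members are grouped by role, filled points passed the adjusted p of 0.05 in limma, and the points spread from -1.64 to 2.94 in the MLL-AF9 cotransduction, from -3.54 to 1.57 in the E2A-HLF cotransduction and from -0.18 to 0.53 in the stable cells. The point at -3.54 is Ldhb, which passed the filter there through PRDM16mut alone, so that it had to differ.

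In the MLL-AF9 cotransduction, the lactate exporter Slc16a3, both genes of the oxidative pentose phosphate steps among the members and several hypoxia targets were lower with PRDM16 than with PRDM16mut. The B form of lactate dehydrogenase, a kinase that keeps pyruvate out of the citric acid cycle and all 3 phosphofructokinase subunits were higher. Among 38 members tested, 12 were called higher (31.6%, against 35.6% of all 11071 genes tested) and 17 were called lower (44.7%, against 34% of all genes). 15 members changed at least 1.5-fold, 5 of them higher and 10 lower (39.5%, against 32.5% of all genes). The groups did not overlap in 33 members (86.8%, against 86.3% of all genes). The median difference of the members was -0.04, against 0.01 over all genes. Scaling each library to its sum without Rn45s moved the median over all genes to -0.10, and 10 members were then higher (26.3%, against 29.2% of all genes) and 18 lower (47.4%, against 41.5% of all genes). Without 1 library, the median difference of the members lay between -0.06 and -0.03. Leaving out either PRDM16mut library left fewer calls, and leaving out either PRDM16 library gave more, among the members and over all genes alike.

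Among the transport genes, the lactate exporter Slc16a3 (MCT4) had 11.8 and 12.3 FPKM with PRDM16 and 39.7 and 38.8 FPKM with PRDM16mut. Both PRDM16 libraries lay far below both PRDM16mut libraries, and the difference was -1.62 (SE 0.054, limma, Benjamini-Hochberg adjusted p = 1.4e-05). The other exporter, Slc16a1 (MCT1), was not called, at 0.12. The high-affinity glucose transporter Slc2a3 (GLUT3) had 11.3 and 10.7 FPKM with PRDM16 and 20.3 and 20.5 FPKM with PRDM16mut and was lower, by -0.83. The widespread glucose transporter Slc2a1 (GLUT1) had 28.4 and 33.6 FPKM with PRDM16 and 29.6 and 29.8 FPKM with PRDM16mut, so that its groups overlapped, and it was not called. Hexokinases trap glucose in the cell by phosphorylating it. Of these, Hk3 was lower (-0.42), Hk1 was higher (0.22), and Hk2 had 14.9 and 14.9 FPKM with PRDM16 and 15.3 and 15.3 FPKM with PRDM16mut and was not called.

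In upper glycolysis, 5 of 9 members were higher, 3 were lower and Tpi1 was not called, beside 35.6% of all genes higher and 34% lower. Phosphofructokinase commits sugar to glycolysis, and its platelet subunit Pfkp had 70.5 and 71.4 FPKM with PRDM16 and 31 and 31.3 FPKM with PRDM16mut. The 2 groups stood well apart, with a difference of 1.16 (SE 0.049, limma, Benjamini-Hochberg adjusted p = 2.86e-05). The subunits Pfkm (0.76) and Pfkl (0.42) were higher as well. Aldolases split the sugar in the middle of the pathway, and Aldoc had 12.8 and 11.9 FPKM with PRDM16 and 4.61 and 4.81 FPKM with PRDM16mut, a difference of 1.23 (SE 0.065, limma, Benjamini-Hochberg adjusted p = 5.75e-05). Aldoa, the main aldolase by level at 989 ± 79.8 FPKM with PRDM16 and 771 ± 10 FPKM with PRDM16mut (SD, n = 2 each), was higher by 0.36. Gpi1, the isomerase that follows hexokinase, was lower by -0.86. So were the enzymes that set the level of the activator of phosphofructokinase, Pfkfb4 (-1.11) and Pfkfb3 (-0.42).

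Lower glycolysis moved less. Eno1, the main enolase, was lower at 139 and 156 FPKM with PRDM16 against 231 and 231 FPKM with PRDM16mut, a difference of -0.65, and Pgam1, the mutase before it, was lower by -0.30. Eno3, the enolase of muscle, was higher by 0.52 at a low level of 2.19 ± 0.02 FPKM with PRDM16 and 1.23 ± 0.08 FPKM with PRDM16mut (SD, n = 2 each). Pkm2, the pyruvate kinase gene, had 848 and 943 FPKM with PRDM16 and 887 and 881 FPKM with PRDM16mut, and it was not called, like Gapdh and Pgk1. Eno2 stayed under the filter, at 0.22 and 0.34 FPKM with PRDM16 and 0.01 and 0.02 FPKM with PRDM16mut.

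At pyruvate stood the member with the largest difference in this experiment. Ldhb, the lactate dehydrogenase subunit of heart, had 32.5 and 34 FPKM with PRDM16 and 3.22 and 3.71 FPKM with PRDM16mut. Both PRDM16 libraries were far above the PRDM16mut libraries, and the difference was 2.94 (SE 0.076, limma, Benjamini-Hochberg adjusted p = 6.65e-06). Ldha, the subunit that favours lactate, was lower at 576 and 617 FPKM with PRDM16 against 676 and 658 FPKM with PRDM16mut, but only by -0.16 (SE 0.056, limma, Benjamini-Hochberg adjusted p = 0.0479). Pyruvate dehydrogenase kinases switch off the entry of pyruvate into the citric acid cycle. Pdk3 had 137 and 134 FPKM with PRDM16 and 43.6 and 44.1 FPKM with PRDM16mut, a difference of 1.61 (SE 0.049, limma, Benjamini-Hochberg adjusted p = 1.06e-05) with no overlap between the groups. Pdk1 went the other way, at 8.05 and 7.75 FPKM with PRDM16 and 9.74 and 10.1 FPKM with PRDM16mut (-0.30).

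In the pentose phosphate pathway, G6pdx, which carries out the first NADPH-making step, had 61.1 and 67 FPKM with PRDM16 and 113 and 114 FPKM with PRDM16mut. Both PRDM16 values lay below both PRDM16mut values, and the difference was -0.82 (SE 0.062, limma, Benjamini-Hochberg adjusted p = 0.000197). Pgd, the second NADPH-making enzyme (-0.46), and the transketolase Tkt (-0.61) were lower too. The transaldolase Taldo1 was the exception, higher by 0.21.

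Of the hypoxia genes tested, 4 of 8 were lower and 2 were higher, beside 34% and 35.6% of all genes. Vegfa, the vessel growth factor, had 6.2 and 6.43 FPKM with PRDM16 and 21.4 and 22.1 FPKM with PRDM16mut, a difference of -1.64 (SE 0.058, limma, Benjamini-Hochberg adjusted p = 1.66e-05). Ero1l, the oxidase that supplies disulfide bonds in the endoplasmic reticulum, had 51.9 and 48.6 FPKM with PRDM16 and 123 and 123 FPKM with PRDM16mut, a difference of -1.27 (SE 0.055, limma, Benjamini-Hochberg adjusted p = 3.15e-05). P4ha1, a collagen prolyl hydroxylase subunit, had 3.89 and 3.67 FPKM with PRDM16 and 10 and 9.78 FPKM with PRDM16mut (-1.19). In all 3 genes the groups were well separated. The oxygen sensor Egln3 was lower by a small margin (-0.20), while Bnip3, a receptor for the removal of mitochondria, was higher (0.43), as was Ankrd37 (0.52). Hif1a had 39.8 and 35.2 FPKM with PRDM16 and 38.6 and 38.4 FPKM with PRDM16mut, so the groups overlapped and it was not called. P4ha2 stayed under the filter.

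**Figure D2:**
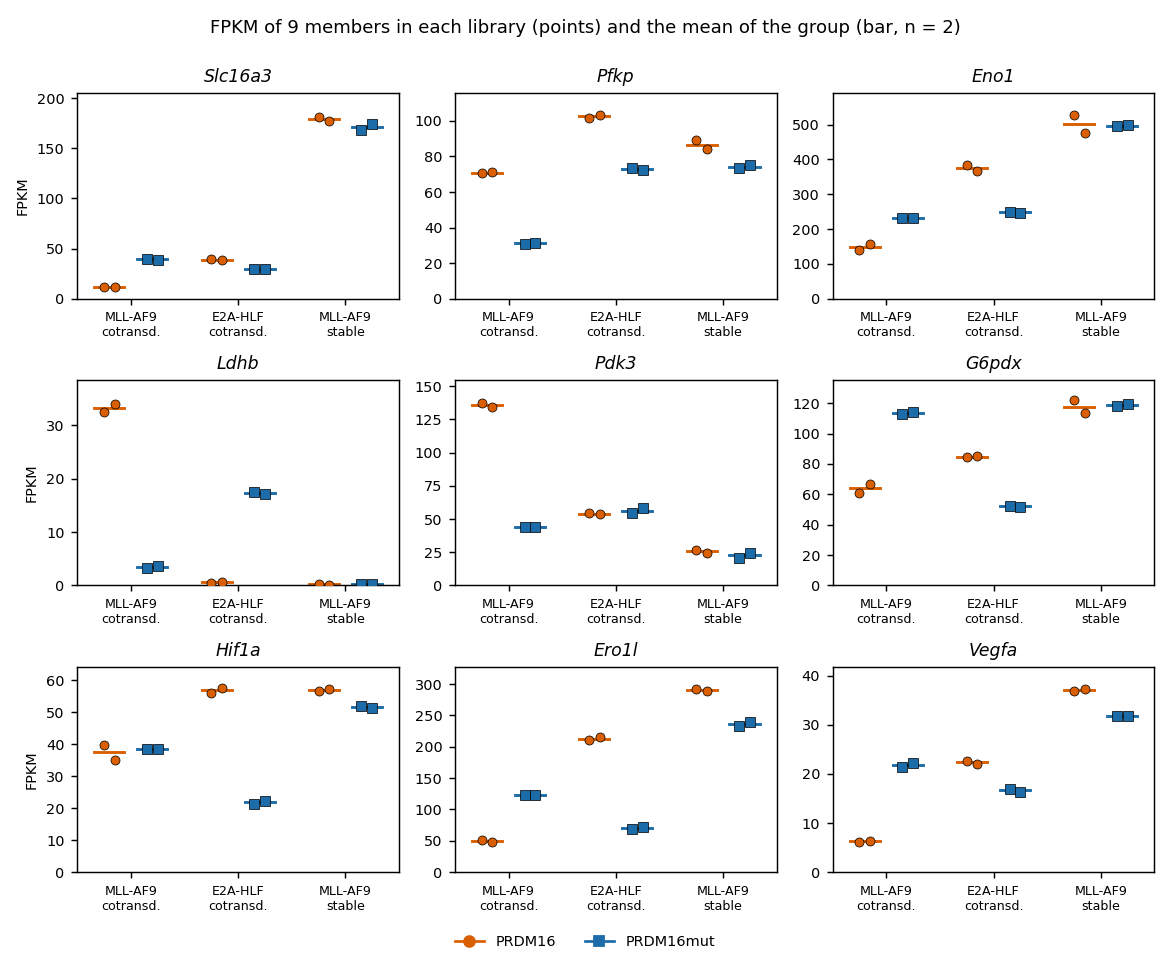
FPKM (linear axis from 0) of 9 members in each of the 12 libraries, with PRDM16 as circles and PRDM16mut as squares and the group mean as a bar (n = 2). Slc16a3, Ero1l and Vegfa lie lower with PRDM16 in the MLL-AF9 cotransduction and higher with PRDM16 in the E2A-HLF cotransduction, while Ldhb runs the opposite way.

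Markers of cell types differed between the same libraries. In the MLL-AF9 cotransduction the 13 neutrophil markers summed to 1201 and 1141 FPKM with PRDM16 and 54448 and 53370 FPKM with PRDM16mut. Of these markers 12 were called lower and 1 higher, and none was listed at 0 in all 4 libraries. The 10 mast cell and basophil markers summed to 117 and 109 FPKM with PRDM16 and 2174 and 2155 FPKM with PRDM16mut, with 9 of 9 tested called lower. The 11 monocyte and macrophage markers summed to 4931 and 4967 FPKM with PRDM16 and 2060 and 2076 FPKM with PRDM16mut. Of 9 tested, 7 were called higher and 1 lower, and Ly86 was listed at 0. The 12 cell division genes summed to 390 and 391 FPKM with PRDM16 and 722 and 737 FPKM with PRDM16mut, and all 12 were called lower. Erythroid markers were higher in 7 of 7 tested, and their sum was 892 and 469.8 FPKM with PRDM16 and 171 and 80 FPKM with PRDM16mut. The 8 T and NK cell markers summed to 490 and 483 FPKM with PRDM16 and 175 and 169 FPKM with PRDM16mut, nearly all of it from the granzyme gene Gzmb. The part of these differences in the glycolysis and hypoxia results was not tested. In bulk RNA, fewer cells of a type and less RNA per cell cannot be told apart.

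In the E2A-HLF cotransduction, most members that changed were higher with PRDM16 than with PRDM16mut. They included 7 of the 8 hypoxia genes tested, Hif1a among them, both NADPH-making enzymes of the pentose phosphate pathway and the lactate exporters. Of the 38 members tested, 22 were called higher (57.9%, against 22.7% of all 11010 genes tested) and 5 were called lower (13.2%, against 21.1% of all genes), or 4 of 37 without Ldhb, which had to differ. Leaving out any 1 library left fewer calls, among the members and over all genes alike, and the median difference of the members lay between 0.18 and 0.22. Most of the changes were small, since only 6 reached 1.5-fold, 5 higher and 1 lower (15.8%, against 12.8% of all genes). The 1 lower was Ldhb. The groups did not overlap in 36 members (94.7%, against 73.7% of all genes). The median difference of the members was 0.21, against 0.01 over all genes.

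The largest increases with PRDM16 among the members were those of 2 hypoxia genes. Ero1l had 210.3 and 215 FPKM with PRDM16 and 69.4 and 72.4 FPKM with PRDM16mut, a difference of 1.57 (SE 0.045, limma, Benjamini-Hochberg adjusted p = 5.02e-06). Hif1a had 55.9 and 57.7 FPKM with PRDM16 and 21.3 and 22.3 FPKM with PRDM16mut, a difference of 1.34 (SE 0.046, limma, Benjamini-Hochberg adjusted p = 9.1e-06). For both genes the PRDM16 libraries stood far above the PRDM16mut libraries. Vegfa had 22.7 and 22 FPKM with PRDM16 and 17 and 16.3 FPKM with PRDM16mut (0.41), and Bnip3 (0.41), Egln1 (0.24), Egln3 (0.22) and P4ha1 (0.19) were higher to a lesser degree. Ankrd37 was the only hypoxia gene called lower, by -0.39. P4ha2 was not tested.

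Of the 7 genes of transport and trapping, 5 were higher and 1 lower (22.7% higher and 21.1% lower over all genes). Hk3, the hexokinase with the highest FPKM of the 3 in every group, had 228 and 217 FPKM with PRDM16 and 141 and 133 FPKM with PRDM16mut, a difference of 0.70 (SE 0.052, limma, Benjamini-Hochberg adjusted p = 0.000185). Its groups were clearly separate. Slc2a1 had 54.4 and 51.5 FPKM with PRDM16 and 45.8 and 44.5 FPKM with PRDM16mut (0.22), and Hk2 had 26.4 and 27.8 FPKM with PRDM16 and 23.6 and 22.9 FPKM with PRDM16mut (0.21), both small and both called. Slc2a3 was lower by -0.22, and Hk1 was not called. Both lactate exporters were higher, Slc16a3 by 0.39 and Slc16a1 by 0.21.

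Of the glycolytic enzymes, Pfkp had 102 and 103 FPKM with PRDM16 and 73.7 and 72.5 FPKM with PRDM16mut, a difference of 0.48 (SE 0.041, limma, Benjamini-Hochberg adjusted p = 0.000303). Pfkfb3 had 36 and 35.5 FPKM with PRDM16 and 24 and 23.5 FPKM with PRDM16mut (0.57), and Eno1 had 383 and 368 FPKM with PRDM16 and 250 and 246 FPKM with PRDM16mut (0.59). In these 3 genes both PRDM16 libraries were above both PRDM16mut libraries. Pgam1 (0.44), Eno3 (0.28) and Gpi1 (0.17) were higher as well, and Aldoc was lower (-0.39). Pkm2 had 861 and 847 FPKM with PRDM16 and 901 and 901 FPKM with PRDM16mut and was not called, nor were Aldoa, Tpi1, Gapdh, Pgk1, Pfkl, Pfkm and Pfkfb4.

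Ldhb showed the strongest change of all members in this experiment, and it was lower with PRDM16. It had 0.46 and 0.69 FPKM with PRDM16 and 17.5 and 17.1 FPKM with PRDM16mut, a difference of -3.54. It was the only member that passed the filter through 1 group alone, so that it had to differ and no test is given. Ldha had 1219 and 1148 FPKM with PRDM16 and 993 and 1023 FPKM with PRDM16mut and was higher by 0.23. Pdk1 was lower at 30.7 and 29.9 FPKM with PRDM16 against 34.3 and 36.9 FPKM with PRDM16mut (-0.22), and Pdk3 was not called.

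In the pentose phosphate pathway G6pdx had 84.3 and 85.1 FPKM with PRDM16 and 52.5 and 51.6 FPKM with PRDM16mut. These groups did not overlap, and the difference was 0.69 (SE 0.04, limma, Benjamini-Hochberg adjusted p = 6.77e-05). Pgd (0.46) and Taldo1 (0.27) were higher too, and Tkt was not called, at 0.08.

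Markers moved in these libraries as well. The 13 neutrophil markers summed to 1954 and 1868 FPKM with PRDM16 and 674 and 689 FPKM with PRDM16mut, with 9 of 10 tested called higher. The 11 monocyte and macrophage markers summed to 354 and 330 FPKM with PRDM16 and 59 and 61.8 FPKM with PRDM16mut, with 3 of 6 tested higher and 3 lower. The 6 progenitor markers summed to 1561 and 1476 FPKM with PRDM16 and 2760 and 2942 FPKM with PRDM16mut, with 1 called higher and 4 lower. The 12 cell division genes summed to 668 and 667 FPKM with PRDM16 and 622 and 640 FPKM with PRDM16mut, with 1 called higher. The stromal list summed to 188 and 200.1 FPKM with PRDM16 and 4.41 and 4.29 FPKM with PRDM16mut, nearly all of it from the adhesion gene Vcam1, with Dcn listed at 0. No marker of the first 4 of these lists was listed at 0 in all 4 libraries, and their part in the results was not tested.

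In the MLL-AF9 stable cells, a set of hypoxia genes was slightly higher with PRDM16 than with PRDM16mut, and the rest of the pathway changed little. Of the 38 members tested, 10 were called higher (26.3%, against 4.2% of all 10580 genes tested) and none was called lower (against 2.16% of all genes). None changed by 1.5-fold, against 0.473% of all genes. The groups did not overlap in 29 members (76.3%, against 60.6% of all genes). The median difference was 0.10, against 0.01 over all genes. These calls rest on all 4 libraries: many of the 10 were lost when 1 library was left out, and so were most calls over all genes. The median difference of the members then lay between 0.07 and 0.12. Without the filter on low values 1 member was called, with 27 higher and 14 lower over all 16733 genes. Scaling each library to its sum without Rn45s gave 10 members higher and 3 lower. Over all genes it gave 434 higher and 835 lower, against 444 higher and 229 lower in the values as deposited. Quantile normalization gave 11 members higher and 2 lower, with 409 higher and 398 lower over all genes.

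6 of the 9 hypoxia genes were among the 10. Bnip3 had 189 and 194 FPKM with PRDM16 and 133 and 132 FPKM with PRDM16mut, a difference of 0.53 (SE 0.03, limma, Benjamini-Hochberg adjusted p = 0.00216). Its groups were well apart, and it was the 1 member called whichever library was left out. Both oxygen sensors were higher, with Egln3 at 50.2 and 50.7 FPKM with PRDM16 and 38.3 and 40 FPKM with PRDM16mut (0.36). Egln1 had 38.1 and 38.4 FPKM with PRDM16 and 30.6 and 31.1 FPKM with PRDM16mut (0.30). Ero1l had 291 and 290 FPKM with PRDM16 and 233 and 239 FPKM with PRDM16mut (0.30). Vegfa had 36.9 and 37.2 FPKM with PRDM16 and 31.8 and 31.7 FPKM with PRDM16mut (0.22). In each of these genes both PRDM16 libraries lay above both PRDM16mut libraries. Hif1a had 56.6 and 57.3 FPKM with PRDM16 and 51.9 and 51.3 FPKM with PRDM16mut, a difference of 0.14 at the edge of the threshold (SE 0.028, limma, Benjamini-Hochberg adjusted p = 0.0499). Ankrd37, P4ha1 and P4ha2 were not called.

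Outside the hypoxia genes, 4 members were called. Aldoc had 26.2 and 24.3 FPKM with PRDM16 and 18.9 and 19.3 FPKM with PRDM16mut (0.38). Pgk1, which makes the first ATP of glycolysis, had 1293 and 1286 FPKM with PRDM16 and 1061 and 1084 FPKM with PRDM16mut (0.27). Both genes showed no overlap between the groups. Pfkp had 89.1 and 84.2 FPKM with PRDM16 and 73.7 and 75 FPKM with PRDM16mut (0.22), and Pdk1 had 43.2 and 42 FPKM with PRDM16 and 36.4 and 36.7 FPKM with PRDM16mut (0.22). The separation was small beside the levels, but complete in both.

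The remaining members of the fixed set were not called in the stable cells. Slc2a1 had 83.3 and 80.3 FPKM with PRDM16 and 73.3 and 73.9 FPKM with PRDM16mut, and Ldha had 1520 and 1494 FPKM with PRDM16 and 1364 and 1401 FPKM with PRDM16mut. The PRDM16 values were above the PRDM16mut values in both, short of the threshold (limma, Benjamini-Hochberg adjusted p = 0.0537 for Slc2a1 and 0.116 for Ldha). Hk2 had 29 and 26.8 FPKM with PRDM16 and 31.9 and 31.6 FPKM with PRDM16mut, the opposite order. Pkm2 had 1277 and 1240 FPKM with PRDM16 and 1146 and 1193 FPKM with PRDM16mut, again with the PRDM16 values on top. G6pdx had 122 and 113 FPKM with PRDM16 and 118 and 120 FPKM with PRDM16mut, which overlapped, and no pentose phosphate member was called. Ldhb lay under the filter, at 0.21 and 0.18 FPKM with PRDM16 and 0.29 and 0.25 FPKM with PRDM16mut, and Eno2 was not tested either. The 13 neutrophil markers summed to 15511 and 15642 FPKM with PRDM16 and 14788 and 15385 FPKM with PRDM16mut in the stable cells, with 1 called higher and 2 lower, and none of the 12 cell division genes was called. The 11 monocyte and macrophage markers summed to 286 and 292 FPKM with PRDM16 and 225 and 227 FPKM with PRDM16mut, with 3 of 10 tested called higher, none lower and none listed at 0 in all 4 libraries. Their part in the hypoxia results was not tested.

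Set side by side, 16 members were called in opposite directions in the cotransductions. 22 of the 38 members tested in both were called in both, those 16 in opposite directions (42.1%, against 22.7% of all 10007 genes tested in both) and 6 in the same direction (15.8%, against 9.79% of all genes). Among the features called in both, 72.7% of the members and 69.8% of all 3247 genes were called in opposite directions. 13 members were lower with PRDM16 beside MLL-AF9 and higher with PRDM16 beside E2A-HLF: Egln3, Ero1l, Vegfa, Eno1, G6pdx, Gpi1, Hk3, Ldha, P4ha1, Pfkfb3, Pgam1, Pgd and Slc16a3. These are 34.2% of the 38 members, against 11% of all genes. 3 ran the other way (7.89%, against 11.7% of all genes), namely Aldoc, Ankrd37 and Ldhb. Ldhb had to differ beside E2A-HLF, as it passed the filter there through PRDM16mut alone, and without it 15 of 37 members were called in opposite directions. Of the 13 above, Ldha (-0.16 and 0.23) and Egln3 (-0.20 and 0.22) moved little in either cotransduction. Ldha, Egln3, Gpi1, Hk3, P4ha1 and Pgam1 each lost a call when 1 library was left out. With a replicate block, Ldha was called in neither cotransduction and Gpi1 was not called beside E2A-HLF. Bnip3, Pfkp, Eno3 and Taldo1 were higher in both, and Pdk1 and Slc2a3 were lower in both. Of these 6, Eno3, Taldo1, Pdk1 and Slc2a3 each lost a call when 1 library was left out. Bnip3 and Pfkp kept their calls in both cotransductions. Taldo1 was also not called beside MLL-AF9 under quantile normalization or when scaled without Rn45s. Bnip3 and Pfkp were the 2 members called higher in all 3 experiments. Gapdh, Pkm2 and Tpi1 were called in none.

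**Figure D3:**
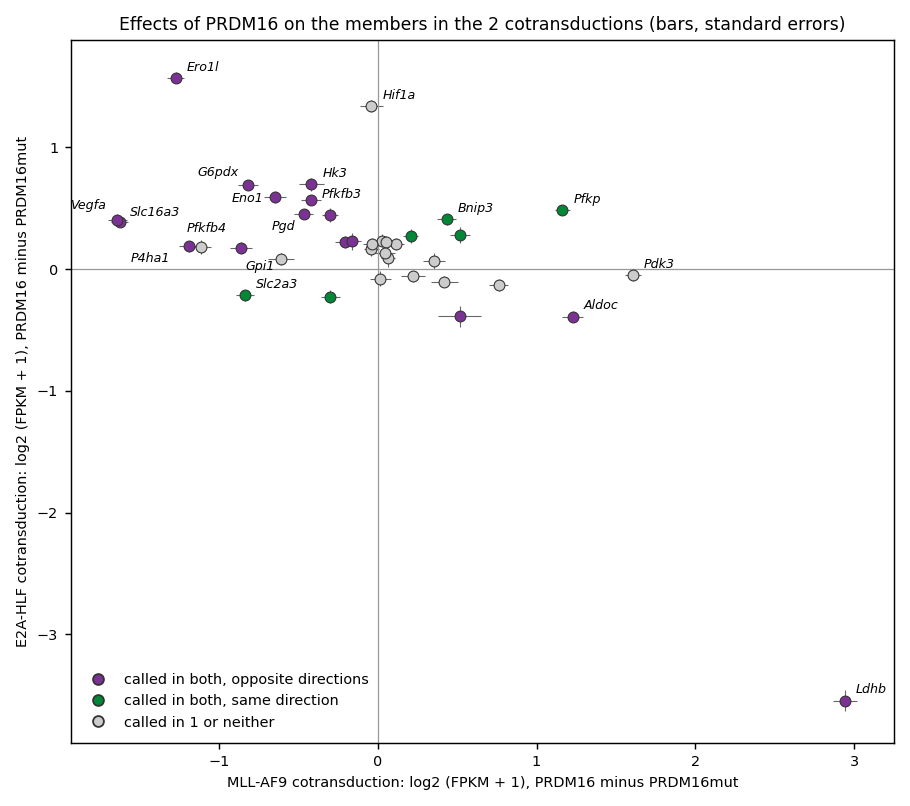
Each point is 1 of the 38 members tested in both cotransductions, with its log2(FPKM + 1) difference, PRDM16 minus PRDM16mut, in the MLL-AF9 cotransduction on the horizontal axis and in the E2A-HLF cotransduction on the vertical axis, and standard errors as bars. 16 members called in opposite directions fill the upper left and lower right, with Ero1l and Ldhb at the ends, and 6 were called in the same direction. Beside E2A-HLF, Ldhb passed the filter through PRDM16mut alone, so that it had to differ.

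The difference between experiments was tested itself, in 1 limma fit of all 12 libraries, for the 37 members that passed the filter in every table. This left out Ldhb, Eno2 and P4ha2. The effect of PRDM16 was more positive in the E2A-HLF cotransduction than in the MLL-AF9 cotransduction for 20 members (54.1%, against 38.8% of all 9489 genes) and more negative for 8 (21.6%, against 32.6%). It was more positive in the stable cells than in the MLL-AF9 cotransduction for 19 members (51.4%, against 33.4%) and more negative for 8 (21.6%, against 30.6%). Between the stable cells and the E2A-HLF cotransduction it was more positive in the stable cells for 5 (13.5%, against 16.9%) and more negative for 15 (40.5%, against 20.2%). The 5 became 8 without either PRDM16 library of the MLL-AF9 cotransduction, and 3 without the second PRDM16 library beside E2A-HLF or without the first PRDM16 or first PRDM16mut library of the stable cells. These 3 tests share libraries pair by pair, so they do not support each other. Gpi1, G6pdx and Eno1 were picked as examples of enzymes after their values were seen, with a difference between the cotransductions of 1.03 (SE 0.078) for Gpi1, 1.51 (SE 0.07) for G6pdx and 1.24 (SE 0.087) for Eno1 (limma, Benjamini-Hochberg adjusted p = 8.1e-07, 1.88e-08 and 4.57e-07). For Bnip3 the effects were 0.41 beside E2A-HLF and 0.43 beside MLL-AF9, and their difference of -0.03 (SE 0.062) was not called.

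Several steps can be carried out by more than 1 gene, and the make-up of these families changed. With 2 libraries against 2, an exact permutation test of a share cannot go below 0.333, so the shares are given without a test. Ldhb made up 5.28% ± 0.09 of the summed Ldha and Ldhb FPKM with PRDM16 and 0.518% ± 0.062 with PRDM16mut in the MLL-AF9 cotransduction, and 0.0488% ± 0.0158 with PRDM16 and 1.69% ± 0.06 with PRDM16mut in the E2A-HLF cotransduction (SD, n = 2 each). Ldha thus stayed the main form in every group. Pfkp made up 64% ± 1.8 of the phosphofructokinase FPKM with PRDM16 and 53% ± 0.92 with PRDM16mut in the MLL-AF9 cotransduction, and 51.9% ± 0.96 with PRDM16 and 41.6% ± 0.36 with PRDM16mut in the E2A-HLF cotransduction. In the stable cells it was 51.5% ± 0.26 with PRDM16 and 48.8% ± 0.53 with PRDM16mut, so Pfkp held the higher share with PRDM16 in all 3 experiments. The summed phosphofructokinase FPKM in the MLL-AF9 cotransduction was 108 and 114 with PRDM16 and 59.1 and 58.3 with PRDM16mut.

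For lactate export, Slc16a3 made up 32.7% ± 0.93 of the summed Slc16a1 and Slc16a3 FPKM with PRDM16 and 63.3% ± 0.34 with PRDM16mut in the MLL-AF9 cotransduction. It made up 45.2% ± 0.21 with PRDM16 and 41.9% ± 0.91 with PRDM16mut in the E2A-HLF cotransduction. Slc16a1 was thus the main exporter by FPKM with PRDM16 beside MLL-AF9, and Slc16a3 with PRDM16mut. Pdk3 made up 94.5% ± 0.05 of the summed Pdk1 and Pdk3 FPKM with PRDM16 and 81.5% ± 0.3 with PRDM16mut beside MLL-AF9. In the stable cells these shares lay within 2 percentage points of each other in both families.

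**Figure D4:**
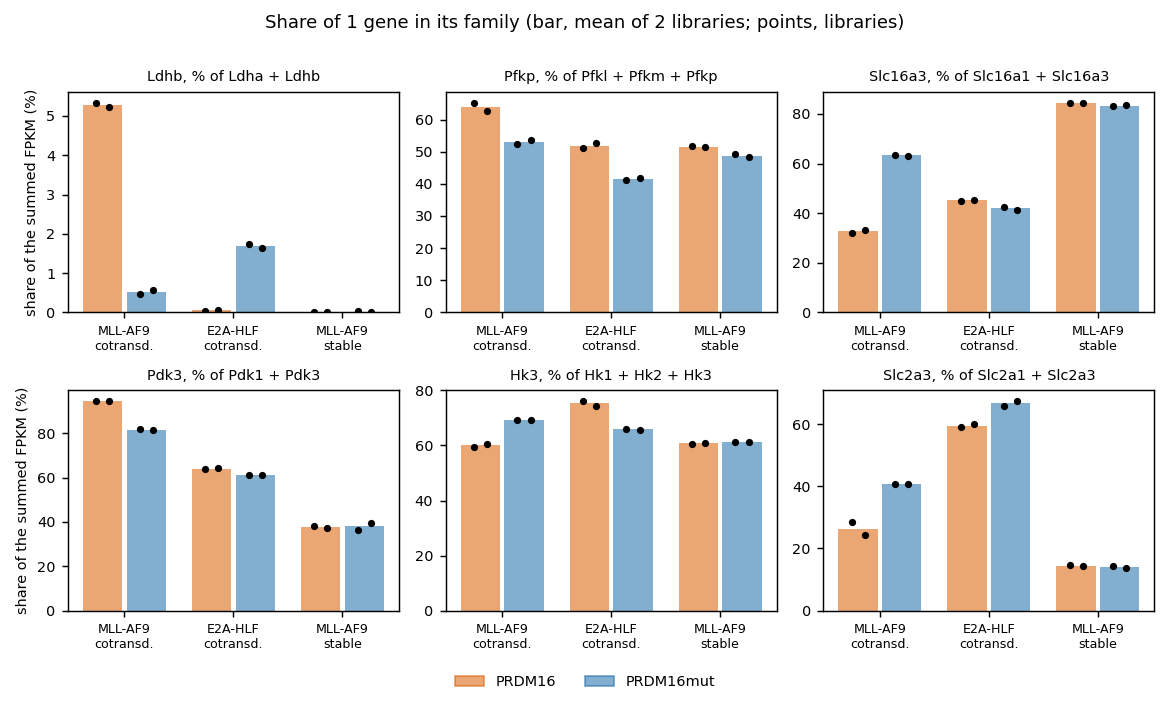
Share of 1 gene in the summed FPKM of its family, in percent, for 6 families in the 3 experiments, with bars for the mean of 2 libraries and points for the libraries. The PRDM16 and PRDM16mut bars of Ldhb and Slc16a3 swap order between the MLL-AF9 and the E2A-HLF cotransduction, Pfkp is higher with PRDM16 in all 3, and most shares of the stable cells lie close together.

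Genes of the same pathways outside the 40 members were counted by 5 lists. In the MLL-AF9 cotransduction, of 14 other glycolysis genes tested 7 were higher and 4 lower, of 14 genes of pyruvate entry 3 were higher and 5 lower, of 11 other pentose phosphate genes 3 were higher and 4 lower, of 15 genes of the HIF machinery 6 were higher and 3 lower, and of 32 other hypoxia targets 12 were higher and 14 lower. Over all genes 35.6% were higher and 34% lower. All 4 pentose phosphate genes called lower were named by the smallest p: Rpe (-1.24), Rpia (-0.68), the ribokinase Rbks (-0.89) and the endoplasmic H6pd (-1.22). Among other hypoxia targets, the glycogen branching enzyme Gbe1 was at 4.65 ± 0.5 FPKM with PRDM16 and 26.8 ± 0.09 FPKM with PRDM16mut (-2.30), and the Myc antagonist Mxi1 was lower by -1.99. The haem oxygenase Hmox1 (1.56) and the stress gene Ddit4 (1.15) were higher. In the HIF machinery, the elongin subunit Tceb2 (0.74) and the HIF inhibitor Cited2 (0.50) were higher, and the coactivator Ep300 was lower (-0.44). The partner subunit Arnt2 had 1.41 and 1.49 FPKM with PRDM16 and 0.18 and 0.18 FPKM with PRDM16mut, and passed the filter only through the PRDM16 libraries, so that it had to differ.

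Other glycolysis genes in the MLL-AF9 cotransduction included Adpgk, an ADP-using glucokinase, at -1.53, the transporters Slc2a6 (1.63) and Slc2a9 (-1.12), and Fbp2, an enzyme of gluconeogenesis, at 2.41 ± 0.15 FPKM with PRDM16 and listed at 0 in both PRDM16mut libraries. Fbp2 passed the filter only through the PRDM16 libraries. At pyruvate, the carrier subunit Mpc1 (-0.41) and the malic enzyme Me2 (-0.31) were lower. The malic enzyme Me1, which makes NADPH, had 4.49 and 4.12 FPKM with PRDM16 and 0.92 and 0.95 FPKM with PRDM16mut, and the pyruvate carboxylase Pcx had 0.70 and 0.89 FPKM with PRDM16 and 1.65 and 1.68 FPKM with PRDM16mut. Each of these 2 passed the filter through 1 group alone, so it had to differ. Me1 was lower with PRDM16 in the E2A-HLF cotransduction, at 5.26 ± 0.16 FPKM with PRDM16 and 14.4 ± 0.61 FPKM with PRDM16mut (-1.30).

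In the E2A-HLF cotransduction, 3 of 15 other glycolysis genes were higher and 4 lower, 6 of 14 pyruvate entry genes were higher and 2 lower, 6 of 11 other pentose phosphate genes were higher and 2 lower, 3 of 15 HIF machinery genes were higher and 2 lower, and 13 of 31 other hypoxia targets were higher and 3 lower. Over all genes 22.7% were higher and 21.1% lower. The hypoxia targets Stc2, a secreted glycoprotein (1.15), Ndrg1 (0.98), the lipid droplet gene Plin2 (0.82) and the disulfide isomerase P4hb (0.73), which works with both Ero1l and P4ha1, were higher. Rpia (0.50), Rpe (0.20) and Shpk (0.29) were higher in the pentose phosphate list, and 5133401N09Rik was lower (-0.43). Pck2 (0.50), Me2 (0.43) and the pyruvate carrier subunit Brp44l (0.34) were higher at pyruvate. Brp44l is the older symbol of Mpc1, which was lower in the MLL-AF9 cotransduction (-0.41). Of the glycolysis list, Slc2a6 (1.26) and 9630033F20Rik (0.54) were higher, and the transporter Slc16a7 (-0.83) was lower. The D-lactate dehydrogenase Ldhd had 0.95 and 0.92 FPKM with PRDM16 and 4.25 and 4.03 FPKM with PRDM16mut, and passed the filter only through the PRDM16mut libraries, so that it had to differ. Of the genes listed as HIF machinery, Os9 (0.41), Cited2 (0.38) and Cul2 (0.20) were higher, and the Arnt-like gene Arntl was lower (-0.60).

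In the stable cells, 12 of 31 other hypoxia targets were higher and 1 was lower (4.2% and 2.16% of all genes), while no gene of the other glycolysis list (13 tested) or of the HIF machinery list (15 tested) was called. The hypoxia targets with the smallest p were the cyclin gene Ccng2 (0.53), the mitochondrial gene Fam162a (0.39), Ndrg1 (0.49) and the Bnip3 relative Bnip3l (0.31). Ndrg1 had a mean of 21.9 ± 0.77 FPKM with PRDM16 and 15.3 ± 0.62 FPKM with PRDM16mut there, and 14.1 ± 0.21 FPKM with PRDM16 and 6.62 ± 0.04 FPKM with PRDM16mut in the E2A-HLF cotransduction (SD, n = 2 each). Pck2 (0.32) and Me2 (0.19) were the 2 of 14 pyruvate entry genes called, both higher, and Pgm2 (0.22) was the 1 of 11 other pentose phosphate genes.

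**Figure D5:**
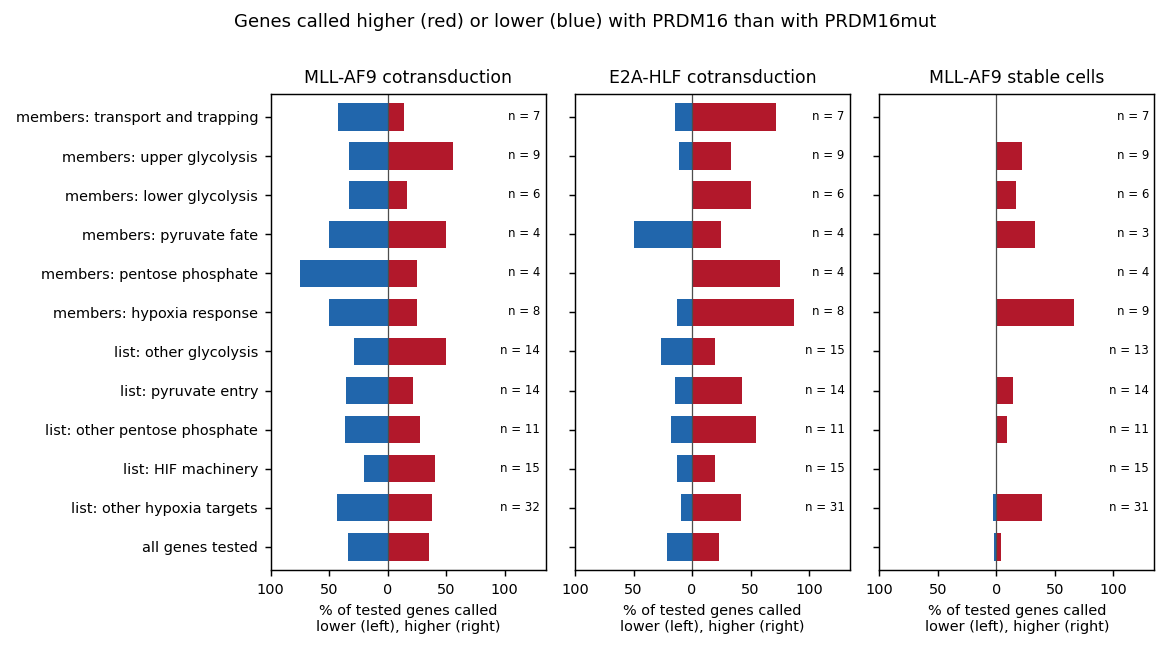
Percent of tested genes called higher (red, right) or lower (blue, left) with PRDM16 than with PRDM16mut, for the members by role, for 5 lists of other pathway genes and for all genes tested, in the 3 experiments; n is the number tested. In the stable cells the calls lie mostly among the hypoxia members (6 of 9) and the other hypoxia targets (12 of 31 higher), beside 4.2% of all genes.

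Gapdh, Eno1, Pgam1, Ldha, Tpi1, Aldoa and Pgk1 have near-identical processed copies in the mouse genome, and how the authors' counting shared reads between copies is not stated in the labels, so their levels are less certain than those of the other members.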

How the data were processed

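RNA of 12 libraries was measured by polyA-selected sequencing. The deposited values are FPKM per gene, made by the authors; the submitters' processing notes name Bowtie2 2.0.0.7, TopHat2 2.0.3, Cuffdiff and mm9, with no roles or order. No counts were among the files used, so the depth is unknown and no counting intervals are given. Each of the 3 tables was processed on its own, so levels of different tables are set side by side only.

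Values were taken as log2(FPKM + 1) and genes kept with at least 1 FPKM in at least 2 of the 4 libraries. limma 3.58.1 (R 4.3.3, eBayes with trend, two-sided) was fitted to all kept genes per table, as PRDM16 minus PRDM16mut, with Benjamini-Hochberg adjustment over all of them and a threshold of 0.05. Differences between experiments were tested in 1 fit of all 12 libraries over 9489 genes. The fitting code was tested on simulated data, with 50 genes changed at each size. Changes of 0.25 on the log2 scale were recovered in 0% in the MLL-AF9 cotransduction, 10% in the E2A-HLF cotransduction and 20% in the stable cells. False calls made up 3.57%, 2.29% and 7.01% of the simulated calls, in the same order.

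The members and lists were chosen with earlier results of these data known. Values per library are given for the up to 8 called members with the largest change in each comparison and for Slc2a1, Hk2, Pfkp, Pkm2, Ldha, Pdk1, G6pdx, Hif1a and Vegfa; from each list of other genes, up to 4 called genes with the smallest p are named. Alternatives were another pseudocount, other filters, other scalings, a replicate block, a shared spread and leaving out each library. Promoter sequences came from RefSeq, GRCm38.p6.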

Additional observations from a re-analysis of the deposited data

Results flagged for a closer look

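The effect of PRDM16 against PRDM16mut differed between experiments for the members below, in the limma fit of all 12 libraries with Benjamini-Hochberg adjustment over 9489 genes. In each pair of experiments these are the 5 members with the largest difference on the log2(FPKM + 1) scale.

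Between the E2A-HLF and the MLL-AF9 cotransduction, the effect was more positive beside E2A-HLF for Ero1l by 2.84 (SE 0.059, limma, adjusted p = 4.29e-11), for Vegfa by 2.04 (SE 0.057) and for Slc16a3 by 2.01 (SE 0.054). It was more negative beside E2A-HLF for Pdk3 (-1.66, SE 0.089) and Aldoc (-1.62, SE 0.072).

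Between the stable cells and the MLL-AF9 cotransduction, the effect was more positive in the stable cells for Vegfa by 1.85, for Slc16a3 by 1.69, for Ero1l by 1.57 and for P4ha1 by 1.28. Pdk3 ran the other way, at -1.43 (SE 0.089, limma, adjusted p = 3.37e-07).

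Between the stable cells and the E2A-HLF cotransduction, the difference was -1.27 for Ero1l, -1.20 for Hif1a, -0.77 for Hk3 and -0.74 for Pfkfb3, all with the more positive effect beside E2A-HLF. For Aldoc it was 0.77 (SE 0.072, limma, adjusted p = 1.76e-05), with the more positive effect in the stable cells.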

How the results depend on the processing

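No called member changed sign under any alternative run, while uncalled members near 0 did under some, such as Pkm2 and Pgk1 in the MLL-AF9 cotransduction with either other scaling. With a change of at least 1.5-fold asked for as well, a rule added after seeing the data, 15 members stayed called in the MLL-AF9 cotransduction (5 higher, 10 lower), 6 in the E2A-HLF cotransduction (5 higher, 1 lower) and 0 in the stable cells. The stable cells were the least steady. Without the filter on low values 1 member was called, with 27 higher and 14 lower over all genes. Many calls were lost when 1 library was left out, among the members and over all genes. Members called lower came to 2 under quantile normalization and 3 when scaled without Rn45s, against 0 as reported. In the E2A-HLF cotransduction 8 were lower under quantile normalization, and between 3 (without the second PRDM16 library) and 5 when 1 library was left out. For the stable cells against the E2A-HLF cotransduction, members with the more positive effect in the stable cells numbered 9 under quantile normalization, 3 with a replicate block and between 3 and 8 without 1 library, against 5: 8 without either PRDM16 library of the MLL-AF9 cotransduction, and 3 without the second PRDM16 library beside E2A-HLF or without the first PRDM16 or the first PRDM16mut library of the stable cells. Libraries of the MLL-AF9 cotransduction do not enter the estimated differences between the stable cells and the E2A-HLF cotransduction. Without either PRDM16 library of the MLL-AF9 cotransduction the median over the members stayed at -0.10, and only the estimated spread changed. Other causes were not tested. In the MLL-AF9 cotransduction 19 of 29 calls held whichever of the 4 libraries was left out, in the E2A-HLF cotransduction 15 of 27, and in the stable cells 1 of 10. Same-numbered libraries were not taken as pairs, although their deviations correlated by 0.29 in the E2A-HLF cotransduction and 0.32 in the stable cells. In the MLL-AF9 cotransduction the correlation was 0.07. Whether same-numbered libraries share a source was not tested. The replicate block gave 12 higher and 16 lower members in the MLL-AF9 cotransduction, 20 and 5 in the E2A-HLF cotransduction, and 9 and 0 in the stable cells. Unknown depth and 2 libraries a group limit all of these calls.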

Other observations

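The summed FPKM of the 9 hypoxia genes was 163 ± 7.9 with PRDM16 and 252 ± 0.78 with PRDM16mut in the MLL-AF9 cotransduction, 632 ± 1.7 with PRDM16 and 392 ± 11 with PRDM16mut in the E2A-HLF cotransduction, and 699 ± 2.7 with PRDM16 and 553 ± 6.4 with PRDM16mut in the stable cells (SD, n = 2 each). The 4 pentose phosphate genes summed to 1138 ± 58 with PRDM16 and 1325 ± 8.4 with PRDM16mut in the MLL-AF9 cotransduction, and to 807 ± 2 with PRDM16 and 669 ± 14 with PRDM16mut in the E2A-HLF cotransduction. By level, Aldoa and Pkm2 led the members in the MLL-AF9 cotransduction and Ldha led them in the stable cells and beside E2A-HLF, in both groups of each.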
